A study of Mus musculus with 3 samples.

Results

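CD4 T cells without Foxp3 were examined in mouse left lungs before transplantation and at 2 time points after reperfusion of a transplant. They were picked cell by cell from unique molecular identifier (UMI) counts. A member had at least 2 UMIs over Cd3d, Cd3e, Cd3g, Trac and Trbc2, at most 1 UMI over the B cell genes Cd79a, Cd79b and Ms4a1, and none of the NK cell genes Ncr1, Klrb1c and Klre1. It gave under 0.5% of its UMIs to the myeloid genes S100a8, S100a9 and Lyz2, and it held at least 1 Cd4 UMI, no Cd8a or Cd8b1 UMI and no Foxp3 UMI. Of 22265 cells called, 21029 were kept (over 200 and under 6000 genes, under 10% mitochondrial UMIs, under 25000 UMIs), 3367 of them were T cells by these marker genes, and 542 were members.

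Each of the 3 conditions was 1 library of cells pooled from 2 mice, so no library had a replicate, and every interval given here covers counting error only. The labels give C57BL/6J for all 3 libraries, and the recipients are named by CD45.1, an allele carried by a congenic B6 strain. The naive library came from left lungs that had not been transplanted. For the libraries of 2 hours and 3 days after reperfusion, left lungs of CD45.2 donors were kept for 60 minutes at 4 °C and 45 minutes at 28 °C, and then transplanted into CD45.1 recipients. Cells were sorted for CD45.1, the recipient's form of the leukocyte surface protein CD45 in the transplants, and the labels list the same sort for the naive library, in which no recipient exists. By that sort the cells of the transplants came from the recipient, and cells in the graft's vessels and in its tissue were not separated. The labels name both a 5′ and a 3′ kit for all 3 libraries and the methods a 3′ kit, and the files do not say which end of the transcripts was read.

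CD4 T cells recognise peptides on class II major histocompatibility molecules through the T cell receptor. They leave the thymus as naive cells that circulate between blood and lymph nodes by means of Ccr7 and S1pr1, a program held in place by the transcription factors Klf2, Tcf7 and Lef1. After antigen they turn into effector and memory cells, which carry more CD44 and S100 proteins, take up chemokine receptors such as Cxcr3, Ccr4 or Cxcr6 for entry into tissue, and secrete the cytokines of a helper lineage. Foxp3 marks the regulatory lineage, which was set apart here.

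The libraries differed widely in depth. The naive library held 28538529 gene UMIs, the 2-hour library 10749100 and the 3-day library 70750470, with a median per kept cell of 7298.5, 878 and 5716.5. The 171 naive members held a median of 8914 UMIs and 2684 genes, the 104 members at 2 hours 1209.5 UMIs and 555 genes, and the 267 members at 3 days 7639 UMIs and 2242 genes. Summed over members, this gave 1552164, 136061 and 2191444 UMIs. Levels are given as CPM, the UMIs of a gene summed over the members of a library for each 1000000 gene UMIs of those cells. A count of 0 allows up to 1.93 CPM in naive members, 22.0 CPM at 2 hours and 1.37 CPM at 3 days (3 counts of the total), so a gene at a low level could not be seen at 2 hours. Cell Ranger 7.1.0 had written the naive file and 6.0.0 the transplant files. Cell barcodes were shared by 8 cells between the naive and 2-hour libraries, by 1 between naive and 3 days and by 23 between 2 hours and 3 days. Of these, 1 was a member in either library and none in both.

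The defining markers of CD4 T cells were present in all 3 libraries. Cd3e, a chain of the T cell receptor complex, lay at 420.1 CPM in naive members, 625 at 2 hours and 423 at 3 days. Cd4, the coreceptor, lay at 267, 831 and 263 CPM. These genes chose the cells, so their levels are no finding, and the higher Cd4 level at 2 hours goes with a rule that needs 1 Cd4 UMI in a shallower cell: 96 of 104 members (92.3%) had exactly 1 Cd4 UMI there, against 59 (34.5%) in the naive library and 116 (43.4%) at 3 days. At the lower edge of the receptor rule, 1, 24 and 1 members had exactly 2 receptor UMIs in naive, 2 hours and 3 days, and 2, 23 and 2 cells just outside had 1 receptor UMI and met every other condition. The median member held 25, 4 and 21 receptor UMIs. For the myeloid limit, 0, 1 and 6 members lay between 0.25% and 0.5% of UMIs, and 0, 1 and 2 cells just outside lay between 0.5% and 1%. As a check on stray RNA, a Cd4 UMI was found in 1 of 487 naive B cells (0.205%), in 0 of 908 at 2 hours and in 5 of 1787 at 3 days (0.280%). These B cells were chosen to hold no receptor UMI, so receptor genes give no such check. Ptprc, which encodes CD45, lay at 1237, 794 and 1105 CPM in members.

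Members made up 7.06% of kept cells in the naive library (95% Clopper-Pearson interval 6.07 to 8.15%), 1.01% at 2 hours (0.827 to 1.22%) and 3.21% at 3 days (2.84 to 3.61%). Among T cells they were 35.6% of 480, 5.16% of 2015 and 30.6% of 872. Most T cells at 2 hours showed neither coreceptor: 1484 had no UMI of Cd4, Cd8a, Cd8b1 or Foxp3, compared with 89 naive cells and 158 at 3 days. When each cell was thinned to 500 UMIs and shallower cells were left out (469 at 2 hours), members were 3.85% of T cells in naive (8 of 208), 2.41% at 2 hours (27 of 1122) and 4.49% at 3 days (18 of 401). On that footing CD4 cells were 27.6% of all CD4 and CD8 T cells in naive (8 of 29), 23.3% at 2 hours (27 of 116) and 23.1% at 3 days (18 of 78). Among all thinned cells, members were 0.330% in naive (0.143 to 0.650%), 0.275% at 2 hours (0.181 to 0.400%) and 0.216% at 3 days (0.128 to 0.342%). The order of 2 hours and 3 days was the reverse of that by the full rule, with overlapping intervals. The shares by the full rule were thus read at unequal depth, and those at equal depth rest on 8, 27 and 18 members.

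At 2 hours the members were high in immediate-early genes, in Cxcr4 and Cd200, and in part of the interferon genes. At 3 days they were high in memory and effector genes, among them S100a4 and Cd44, and the naive and homing genes had the lowest sum of the 3 libraries. CD8 T cells of the same libraries, 193, 393 and 383 cells, are given beside the members. They were chosen by the same rule with a Cd8a or Cd8b1 UMI in place of Cd4, but with no condition on Foxp3. A gene was counted as higher when the log2 ratio of CPM plus 10 reached 1 (2-fold), among genes with at least 50 UMIs over the members of both libraries compared. No test is possible with 1 library in each group.

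**Figure D1:**
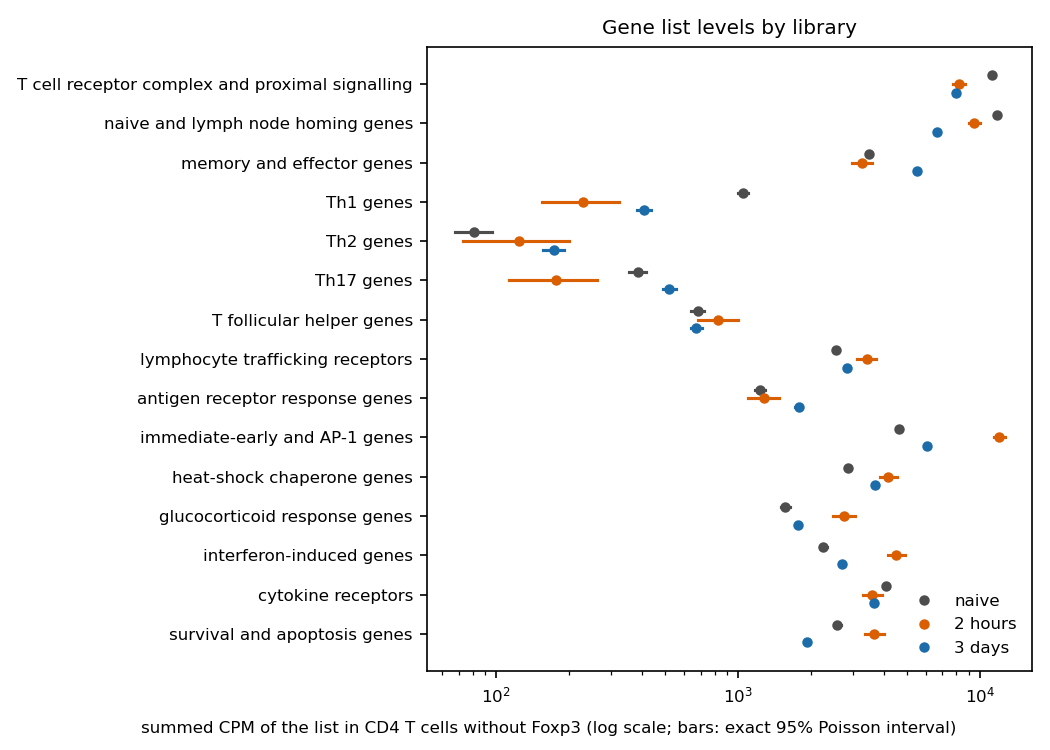
Summed level of 15 gene lists in CD4 T cells without Foxp3 (x axis, CPM, log scale) in the naive, 2-hour and 3-day libraries; points are sums over all genes of a list and bars are 95% Poisson intervals of the counts, which for most lists are narrower than the point. Immediate-early genes reached 12039 CPM at 2 hours against 4633 in naive, and memory and effector genes 5479 CPM at 3 days against 3256 at 2 hours.

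Between 2 hours and 3 days, 5217 genes could be compared. Of these, 288 (5.52%) were higher at 2 hours and 787 (15.1%) at 3 days, and the median log2 ratio of all genes was -0.17. The share higher at 2 hours among all genes past the fold was 26.8%, and 42.5% when the ratios were centred on that median. It was 53.1% with a constant of 50 CPM and 61.0% without cells that held a UMI of S100a8, S100a9 or Lyz2, so its direction depended on the settings. Low counts weighed on the number higher at 3 days: 583 of the 787 genes (74.1%) had at most 3 UMIs at 2 hours, and 148 had none. Both libraries were written by the same Cell Ranger version.

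Immediate-early genes, which cells switch on within minutes of a stimulus, stood highest at 2 hours. The list summed to 4633 CPM in naive members, 12039 at 2 hours (95% Poisson interval 11463 to 12636) and 6015 at 3 days. Of 19 members of the list tested against 3 days, 5 were higher at 2 hours (Fos, Jun, Ier2, Btg1 and Ppp1r15a) and 2 lower (Klf4 and Gadd45b). The median log2 ratio of the 19 was 0.42 against -0.17 over all genes. Klf4 fell from 44.7 to 17.5 CPM at 3 days without the class II- or macrophage-rich cells, defined with the memory genes. Btg1, an antiproliferative gene abundant in resting lymphocytes, was at 1303 CPM in naive, 4873 (4509 to 5258) at 2 hours and 1395 at 3 days, a log2 ratio of 1.80 between the last 2. It alone gave 4873 of the 12039 CPM of the list at 2 hours, so the ratio of the sums leans on this gene. The AP-1 subunit Fos was at 62.5, 301 and 77.1 CPM, from 97, 41 and 169 UMIs. Jun was at 72.2, 309 and 104 CPM, and Junb at 640, 1786 and 891 CPM, which placed Junb just inside the fold limit with 0.99. Ppp1r15a, a phosphatase subunit of the stress response, was at 81.2, 309 and 123 CPM. For each of these genes the interval at 2 hours lay above both other intervals. CD8 T cells had the same order in the list, at 3895, 10690 and 4840 CPM. So had B cells (5267, 14668 and 5971 CPM) and neutrophils (15063, 32987 and 17846 CPM). The higher level at 2 hours was thus not particular to members or to T cells.

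Cxcr4 and Cd200 were among the 10 genes with the largest ratio of 2 hours to 3 days. Cxcr4, the receptor for the chemokine CXCL12, was at 52.8 CPM in naive members, 735 (598 to 894) at 2 hours and 103 at 3 days, from 82, 100 and 226 UMIs, with a log2 ratio of 2.72 over 3 days. It was the one trafficking receptor of 16 tested that was higher at 2 hours. CD8 T cells held 51.8, 487 and 95.3 CPM of it, and B cells 191, 2590.3 and 289 CPM. Cd200, a surface glycoprotein that restrains myeloid cells through its receptor, was at 9.66, 294 (210.0 to 400.3) and 7.30 CPM. These came from 15 UMIs in 11 naive members, 40 UMIs in 29 members at 2 hours and 16 UMIs in 14 members at 3 days, so 27.9% of the members at 2 hours showed the gene, at the lowest depth of the 3 libraries. With every cell thinned to 500 UMIs, 15.4% of members at 2 hours, 0.585% in naive and none at 3 days had a Cd200 UMI. B cells showed it in 13.3%, 1.44% and 1.01% and CD8 T cells in 1.27%, 0% and 0.261% in the same order of libraries. At 2 hours Cd200 was thus at 294 CPM in members, 147 CPM in T cells with neither coreceptor and 25.9 CPM in CD8 T cells, and CD8 T cells held 1.36 and 2.40 CPM in naive and at 3 days. The 5 Foxp3-positive CD4 T cells at 2 hours, in which a count of 0 allows up to 399 CPM, were too few to be set beside them.

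**Figure D2:**
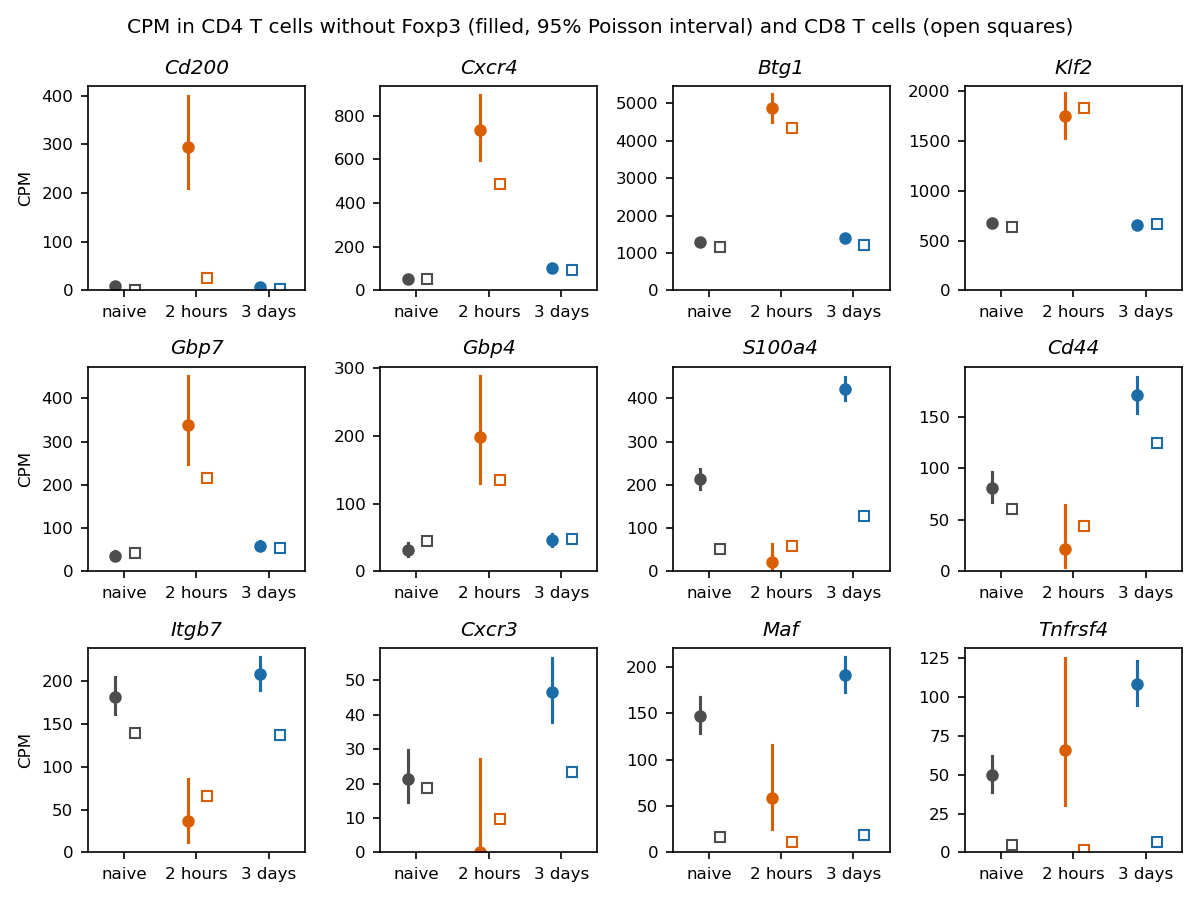
Level of 12 genes (y axis, CPM) in the naive, 2-hour and 3-day libraries; filled points are CD4 T cells without Foxp3 with their 95% Poisson interval and open squares are CD8 T cells. Cd200, Cxcr4, Btg1, Klf2, Gbp7 and Gbp4 were highest at 2 hours in the members, and S100a4, Cd44, Cxcr3 and Tnfrsf4 at 3 days, with wide intervals at 2 hours.

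The naive and homing list had its highest sum in naive members and its lowest at 3 days, whereas several of its genes were highest at 2 hours. It summed to 11735 CPM in naive, 9481 at 2 hours and 6617 at 3 days, and Lef1, a gene with long introns, gave 1884, 713 and 426 CPM of it. At 2 hours over naive the median log2 ratio of 13 genes tested was 0.11 and the sum differed by -0.31, so median and sum had opposite signs. Klf2, which drives S1pr1, was at 676, 1749 (1534 to 1986) and 657 CPM, and Tcf7, a transcription factor of naive and stem-like T cells, at 440.0, 749.7 and 287 CPM. Both were past the fold against 3 days, with 1.40 and 1.36, whereas Dapl1 (195, 14.7 and 77.6 CPM, the middle value from 2 UMIs) was lower at 2 hours. Ccr7, a receptor of lymph node entry, was at 446, 522 and 348 CPM, within the fold. Il7r, the receptor for the survival cytokine interleukin 7, hardly moved, at 804, 867 and 808 CPM. The median log2 ratio of the 14 genes tested was 0.40 at 2 hours over 3 days, and the sum differed by 0.52 (0.44 to 0.60) in members and by 0.40 in CD8 T cells.

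Interferon-induced genes were higher at 2 hours in part. The list summed to 2254 CPM in naive members, 4520 at 2 hours and 2698 at 3 days. At 2 hours over 3 days the sum differed by 0.74 on the log2 scale, and by -0.67 among members without any S100a8, S100a9 or Lyz2 UMI, of which 10 were left at 3 days. Of 16 genes tested between 2 hours and 3 days, 4 were higher at 2 hours, among them Ifi206, Gbp4 and Gbp7, and 1 was lower (Bst2), with a median log2 ratio of 0.70. Gbp7, a guanylate-binding GTPase of defence against intracellular microbes, was at 36.7 CPM in naive (57 UMIs), 338 (248 to 451) at 2 hours (46 UMIs) and 59.3 at 3 days (130 UMIs), with a log2 ratio of 2.33. Its relative Gbp4 was at 31.6, 198 and 46.1 CPM, and Gbp2 at 21.9, 73.5 and 37.9 CPM with only 10 UMIs at 2 hours and a ratio of 0.80, short of the fold. Bst2, which tethers virus particles to the cell surface, had 129 UMIs in naive, none at 2 hours and 234 at 3 days, and 22.0 CPM would have been allowed by that count of 0. Isg15, a ubiquitin-like modifier, was at 27.1, 88.2 and 52.5 CPM, so the ratios of Gbp4 and Gbp7 exceeded its ratio. In CD8 T cells Gbp7 was at 42.7, 215 and 53.7 CPM.

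Interferon genes carry short motifs upstream of their start, among them TTCNNNGAA and a repeat of TTTC with any 2 bases between the copies, at which transcription factors of the interferon response are known to bind. Of the 24 genes in the list, 15 had a promoter in the RefSeq table (GRCm38.p6), and Gbp4 was not among them. The 250 bases before the start of Gbp7 and of its family member Gbp2 are shown, on the plus strand and with each motif in capitals, as the family member past the fold and the one short of it.
Gbp7, chr3:142530086-142530335: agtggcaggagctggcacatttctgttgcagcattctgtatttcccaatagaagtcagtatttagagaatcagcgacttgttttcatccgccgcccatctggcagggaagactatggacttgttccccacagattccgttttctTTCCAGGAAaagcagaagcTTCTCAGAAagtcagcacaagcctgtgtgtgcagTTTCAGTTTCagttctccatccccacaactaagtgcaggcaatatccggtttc
Gbp2, chr3:142620413-142620662: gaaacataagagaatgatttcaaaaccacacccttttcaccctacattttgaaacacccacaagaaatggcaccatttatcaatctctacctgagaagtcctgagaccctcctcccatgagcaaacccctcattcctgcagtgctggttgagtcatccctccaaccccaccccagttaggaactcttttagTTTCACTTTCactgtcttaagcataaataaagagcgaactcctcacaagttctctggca
Gbp7 held 2 matches of TTCNNNGAA and 1 of the TTTC repeat, and Gbp2 held 1 of the TTTC repeat alone, counted on both strands. The TTTC repeat occurred in 978 of 32851 promoters of this length (2.98%), in 10 of the 15 interferon promoters, in 2 of 18 of the immediate-early list and in 0 of 13 of the memory list. TTCNNNGAA occurred in 2306 promoters (7.02%), and in 5 of the 15, 1 of the 18 and 1 of the 13. Matches were found in both directions. Bst2, lower at 2 hours than at 3 days, held 2 TTTC repeats and 1 TTCNNNGAA, and Ifi206, higher at 2 hours, held 1 TTTC repeat and no TTCNNNGAA. A match of letters is no measured binding site.

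Single heat-shock, glucocorticoid and survival genes were also higher at 2 hours. Over all genes tested against 3 days, 5.52% were higher and 15.1% lower. Of 12 heat-shock genes tested against 3 days, 2 were higher at 2 hours and none lower. Hspa1b, the inducible Hsp70, was at 63.8, 397 (298 to 518) and 125 CPM, and its cochaperone Dnajb1 at 49.6, 257 and 70.7 CPM, and the near-identical copy Hspa1a at 49.0, 162 and 127 CPM. Without the class II- or macrophage-rich cells, defined with the memory genes, Hspa1a was at 56.5 CPM at 3 days, which gave a log2 ratio of 0.996 (0.33 over all members). Reads of Hspa1a and Hspa1b cannot be divided with certainty between such copies. Of 11 glucocorticoid-response genes, Fkbp5 (37.4, 95.5 and 25.1 CPM), Ddit4 (5.15, 110.2 and 25.6 CPM) and the Cxcr4 already described were higher at 2 hours and Errfi1 lower. Tsc22d3, a direct target of the glucocorticoid receptor, was at 207, 249.9 and 215 CPM. Among 11 survival and death genes, 2 were higher and 2 lower, and only higher ones are named here. Pdcd4, an inhibitor of translation, was at 354, 1595 and 219 CPM, and the death receptor Fas at 30.3, 257 and 41.5 CPM. CD8 T cells held 355, 2344 and 277 CPM of Pdcd4 and 32.3, 176 and 39.2 CPM of Fas. Glycolysis genes summed to 1655, 2933 and 2146 CPM, with Gapdh at 355, 1073 and 451 CPM, and 3 of 14 genes tested were higher and 2 lower at 2 hours than at 3 days.

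Some of the largest ratios at 2 hours were found in both T cell classes, in B cells and in neutrophils, and concern no immune program. Bc1, a noncoding RNA made by RNA polymerase III, was at 23.8, 551 and 21.9 CPM in members and 27.7, 515 and 17.1 CPM in CD8 T cells. B cells held 19.4, 297 and 8.50 CPM of it and neutrophils 11.3, 115 and 3.88 CPM. The histone gene Hist1h1e was at 36.7, 426 and 73.0 CPM, the mitochondrial gene mt-Atp8 at 78.6, 838 and 149.7 CPM, and the zinc transporter Slc39a1 at 9.02, 184 and 17.8 CPM. Of the 288 genes higher at 2 hours than at 3 days in members, 157 (54.5%) were past the fold in the same direction in CD8 T cells. In the other direction, 166 of the 787 genes higher at 3 days (21.1%) were also past it in CD8 T cells. The share of all genes past the fold in CD8 T cells was not computed, so neither overlap has a background beside it. The 2 shares also concern unlike genes, since 583 of the 787 and 0 of the 288 had at most 3 member UMIs in the lower library.

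The other direction held the memory and effector genes. The list summed to 3467 CPM in naive members (3375 to 3561), 3256 at 2 hours (2960 to 3574) and 5479 at 3 days (5381 to 5577). Of 18 genes tested between 2 hours and 3 days, none was higher at 2 hours and 7 were lower (Cd44, S100a4, S100a6, Itgb7, Vim, Nkg7 and Lgals3), with a median log2 ratio of -0.76 against -0.17 over all genes. CD8 T cells held 3984, 7553 and 5603 CPM of the same list, so the sum at 2 hours over 3 days was -0.75 on the log2 scale in members (-0.89 to -0.61) and 0.43 in CD8 T cells. Ccl5, a chemokine of memory and cytotoxic cells, carries that CD8 difference. Without it the sum differed by -0.75 in members and 0.035 (-0.028 to 0.096) in CD8 T cells. It was at 638, 360.1 and 618 CPM in members and at 1005, 3577 and 1722 CPM in CD8 T cells.

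S100a4, a calcium-binding protein high in memory T cells, was at 213 CPM in naive members, 22.0 at 2 hours (4.55 to 64.4) and 422 at 3 days. It was carried by 26, 2 and 94 cells, with 331, 3 and 925 UMIs. The ratio of 2 hours to 3 days lay between -6.54 and -2.71 on the log2 scale by counting error. With cells thinned to 500 UMIs, 5.26%, 0% and 11.99% of members had an S100a4 UMI, and 0.205%, 0.455% and 2.63% of B cells. CD8 T cells were at 50.9, 58.3 and 128 CPM. Cd44, the hyaluronan receptor that marks antigen-experienced T cells, was at 81.2, 22.0 and 171 CPM, from 126, 3 and 374 UMIs, and its ratio of 2 hours to 3 days lay between -5.24 and -1.39. Itgb7, a chain of the mucosal homing integrins, was at 182, 36.7 and 208 CPM, from 282, 5 and 455 UMIs. S100a6 was at 182, 198 and 415 CPM and Vim, an intermediate filament gene, at 146, 169 and 393 CPM. At 2 hours S100a4, Cd44 and Itgb7 thus lay below both other libraries, whereas S100a6 and Vim lay near the naive level and below 3 days.

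UMIs of class II and macrophage genes were present in both transplants, most of them at 3 days, and have to be read beside these values. A set of 12 class II, complement and other macrophage genes, among them Cd74, H2-Aa, H2-Ab1, H2-Eb1, C1qa, C1qb, C1qc, Apoe, Fn1, Csf1r and Tgfbi, gave 91, 96 and 4875 UMIs over the members. Of these, 4212 (86.4%) at 3 days fell in 10 members with at least 20 such UMIs each, whose median was 18584 UMIs in all, and 87 (90.6%) at 2 hours in 3 members. No naive member reached 20. Over all members the 12 genes summed to 58.6, 706 and 2225 CPM, in CD8 T cells to 48.6, 722 and 599 CPM, and in members outside these cells to 58.6, 69.0 and 332 CPM. The 2-hour and 3-day cells differed in their genes. All 87 UMIs at 2 hours were of class II genes, 59 of them Cd74, which B cells of that library held at 20361 CPM, and Apoe, Fn1, Csf1r and the C1q genes had none. The 10 cells at 3 days held 1035 Cd74, 540 Apoe, 207 C1qa and 191 Fn1 UMIs. The 13 cells are called class II- or macrophage-rich here. Scrublet called 1, 3 and 0 members doublets. Without the 13 cells S100a4 at 3 days had 764 UMIs and 382 CPM, and 1 UMI was left at 2 hours. The log2 ratio between 2 hours and 3 days was then -4.47 for S100a4 (-3.75 with all members), -1.97 for Cd44 (-2.49), -2.46 for Itgb7 (-2.22), -0.93 for S100a6 (-1.03) and -0.88 for Vim (-1.17). Of the genes just named, S100a6 and Vim were therefore no longer past the fold. For Nkg7 and Lgals3 of the same list, ratios without these cells are not given. Of the 787 genes higher at 3 days, 621 were kept without these cells, and 247 of the 288 higher at 2 hours.

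Helper lineage genes were followed in 4 lists. Th1 genes summed to 1051, 228 and 409 CPM, and at 3 days over 2 hours Cxcr3 and Stat4 of 5 tested were higher. Cxcr3, the chemokine receptor of Th1 cells, had 33 UMIs in 13 naive members, none at 2 hours and 102 UMIs in 51 members at 3 days, which is 21.3 and 46.5 CPM in the libraries with a UMI. Stat4 was at 705, 58.8 and 162 CPM, and so gave most of the naive sum. B cells held 1252, 144 and 245 CPM of the Th1 list. At 3 days over naive that list differed by -1.36 on the log2 scale in members and -1.46 in CD8 T cells. With genes of under 5000 intron bases alone, the sign in members turned. Th2 genes summed to 81.2, 125 and 173 CPM in members and 40.9, 85.8 and 38.2 CPM in CD8 T cells. Of this list Ccr4, a receptor of Th2 and regulatory cells that leads into tissue, was at 4.51, 7.35 and 26.0 CPM (7, 1 and 57 UMIs), and Gata3, its lineage factor, at 54.1, 103 and 83.5 CPM. Th17 genes summed to 385, 176 and 521 CPM in members and 149, 55.0 and 105 CPM in CD8 T cells. All 4 genes tested were higher at 3 days than at 2 hours. Of these, Tmem176a and Tmem176b had 1 UMI each at 2 hours and met the count minimum through the 3-day library alone. Maf was at 147, 58.8 and 191 CPM and Rora at 205, 80.8 and 201 CPM. Tmem176a (7.73, 7.35 and 55.2 CPM) and Tmem176b (6.44, 7.35 and 42.4 CPM), which macrophages also express, had 44 and 24 UMIs at 3 days without the 13 class II- or macrophage-rich cells, too few to be compared. The ratio of Maf was -1.55 over all members and -2.39 without them. Follicular helper genes summed to 682, 831 and 672 CPM, with Cd200, described above, as the gene higher at 2 hours and Sh2d1a lower.

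Helper cytokines were almost absent, and they are named after their values were seen. Ifng had 21, 0 and 9 UMIs, Il17a 4, 0 and 1, Il4 0, 0 and 4, Il21 0, 0 and 3, and Il2 2, 1 and 19, the last over 18 cells. Members were thus recorded with receptors and transcription factors of helper cells and with few transcripts of their cytokines.

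Receptor response genes gave 4 of 15 tested higher at 3 days than at 2 hours and none lower, beside 15.1% higher among all genes. Nr4a1, induced by the T cell receptor and by other stress signals, was at 41.2, 147 and 115 CPM. Its relatives Nr4a2 (32.9, 7.35 and 79.9 CPM) and Nr4a3 (102, 29.4 and 177 CPM) were among the 4 higher at 3 days, as were Dusp2 and Cd83. Nr4a2 had 1 UMI at 2 hours and met the count minimum through the 3-day library alone. Without the class II- or macrophage-rich cells, Cd83 had too few UMIs to be compared (36 at 3 days), and Dusp2 came to -0.71 at 2 hours over 3 days on the log2 scale (-1.21 over all members). Of 16 trafficking receptors, 6 were past the fold at 3 days (Cxcr3, Ccr4, Ccr9, Cxcr6, Itgal and Itgb2). The first 4 had 0 or 1 UMI at 2 hours and met the count minimum through the 3-day library alone, and the counting intervals of Ccr4, Ccr9 and Cxcr6 overlapped between the libraries. Of the 72 Ccr9 UMIs at 3 days, 21 were left without the class II- or macrophage-rich cells, too few to be compared. Itgal and Itgb2, the chains of the adhesion integrin LFA-1, were at 108, 29.4 and 174 CPM and at 97.9, 36.7 and 152 CPM. Costimulatory and checkpoint receptors summed to 1437, 1249 and 1443 CPM, and none of 11 tested was past the fold in either direction. Of 19 cytokine receptors, Ifngr2, a chain of the interferon gamma receptor, was higher at 2 hours (172, 331 and 103 CPM) and 5 were lower (Il10ra, Il10rb, Tgfbr1, Tnfrsf1b and Il27ra), of which Il10ra and Tgfbr1 had too few UMIs to be compared without those cells. Tissue residency genes summed to 704, 742 and 801 CPM, with Rgs1, a brake on chemokine receptors, higher at 2 hours (32.2, 184 and 70.7 CPM) and Cxcr6 and Dgat1 lower, of 7 tested. Receptor complex and signalling genes, some of which chose the cells, summed to 11240 CPM in naive, 8217 at 2 hours and 7964 at 3 days. Cell cycle genes summed to 1100.4, 1367 and 1329 CPM, and 1 of 7 tested, the tubulin gene Tubb5, was higher at 2 hours.

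To describe how members varied among themselves, each was thinned to 500 UMIs and sorted by a UMI of any of 3 genes of the naive side, Ccr7 and Lef1 among them, and of S100a4, Itgb1, Cxcr6, Ccr2 or Cxcr3 (memory side). In naive lungs 120 of 171 members (70.2%, 62.7 to 76.9%) were on the naive side only and 12 (7.02%, 3.68 to 11.9%) on the memory side only. At 2 hours 52 of 104 (50%, 40.03 to 59.97%) and 3 (2.88%, 0.599 to 8.20%) were. Thinned to 300 or 1000 UMIs, the memory side held 4.81% and 6.49% at 2 hours. At 3 days 92 of 267 (34.5%, 28.8 to 40.5%) and 50 (18.7%, 14.2 to 23.9%) were. A further 35, 46 and 117 members held no UMI of either side and 4, 3 and 8 held both. Lef1, which sits on the naive side, was at 1884 CPM in the naive library and at 713 and 426 CPM in the transplants, and it is a gene with long introns, so the naive share cannot be told apart from the difference in counting software.

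**Figure D3:**
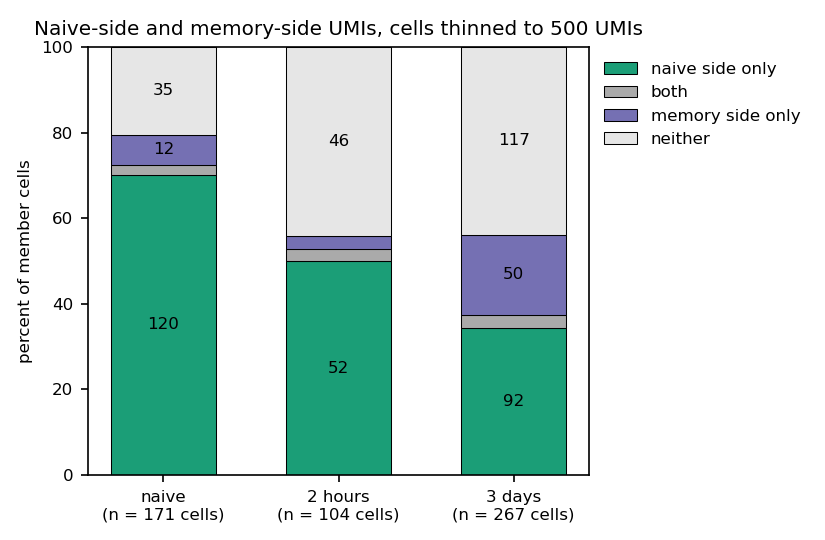
Share of CD4 T cells without Foxp3 (y axis, percent of members) with UMIs of naive-side genes only, memory-side genes only, both or neither, per library, after thinning each cell to 500 UMIs. The memory side only held 7.02% of naive members, 2.88% at 2 hours and 18.7% at 3 days.

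Genes that did not enter the sorting set the sides apart within 1 library, at nearly equal depth at 3 days. At 3 days, with class II- or macrophage-rich cells left out, 47 memory-side and 91 naive-side members were compared. Ccl5 was at 1525 CPM on the memory side and 90.7 on the naive side, S100a6 at 1267 and 113, Nkg7, a cytotoxic granule protein, at 279 and 8.50, and Il2rb, a chain of the interleukin 2 and 15 receptors, at 378 and 38.3 CPM. The transcription factors Maf (487 and 62.4 CPM) and Rora (547 and 80.8 CPM) were on the memory side too, with the chemokine receptor Ccr6 (23 and 0 UMIs). Single genes known from dividing cells were among those of largest ratio there. They were named after their values were seen, so they say nothing of proliferation genes as a group. Hist1h1b had 86 and 1 UMIs, Top2a 38 and 1, Mki67 31 and 2, and Pclaf 30 and 0. The number of cells on each side that held these UMIs was not counted. Ikzf2, a gene of regulatory and activated T cells, was at 261 and 25.5 CPM. On the naive side stood Igfbp4 (52.1 and 445 CPM, memory side first), Satb1, a chromatin organiser of naive T cells (396 and 1700.5 CPM), Tubb2a (10.4 and 258 CPM) and Dapl1 (20.9 and 109 CPM). The 12 memory-side members of the naive lungs shared this pattern in Ccl5 (4948 and 149 CPM), S100a6 (1466 and 15.8 CPM), Nkg7 (552 and 14.0 CPM) and Rora (1535 and 35.4 CPM), and added the Th1 factor Tbx21 (224 and 0 CPM). B cell genes were higher in them too, with Ebf1 at 310 and 7.45 CPM and Bank1 at 164 and 1.86 CPM. At 2 hours only 3 members were on the memory side, with a median of 1988 UMIs against 1173.5 on the naive side, and Crip1, a LIM-domain protein of memory cells, had 62 UMIs in them and 24 in the 52 naive-side members.

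The antibody counts of the transplant libraries gave a readout that the sorting had not used. Of 277 antibody features, counts in members lay above the 9 isotype controls for ITGA6, ITGB7, CD44, CD45R and LGALS3 only, and those for CD4, CD8A and CD3D were at or near 0, so the antibodies could not serve to check the cell type. The CD44 antibody had a median of 15.5 counts per cell in the 50 memory-side members at 3 days (interquartile range 12 to 30.25) and 3 in the 92 naive-side members (1 to 6). Members with neither side's genes had a median of 5 and those with both 15. Members with an S100a4 UMI had a median of 15 (94 cells) and those without 4 (173 cells). At 2 hours the 3 memory-side members had 23, 39 and 95 counts, and the 52 naive-side members a median of 2. The total of antibody counts per cell, with CD44 included, was also higher in memory-side members at 3 days. Its median was 73 against 35.5, at almost the same RNA depth (7602 and 7623 UMIs). The ITGA6 antibody followed CD44, with medians of 34 and 12.5, while ITGB7 had a median of 5 on the memory side and 15 on the naive side but a mean of 33.5 and 18.8 counts per cell, so its order depended on the measure. Cells are not replicates, so no test is given.

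**Figure D4:**
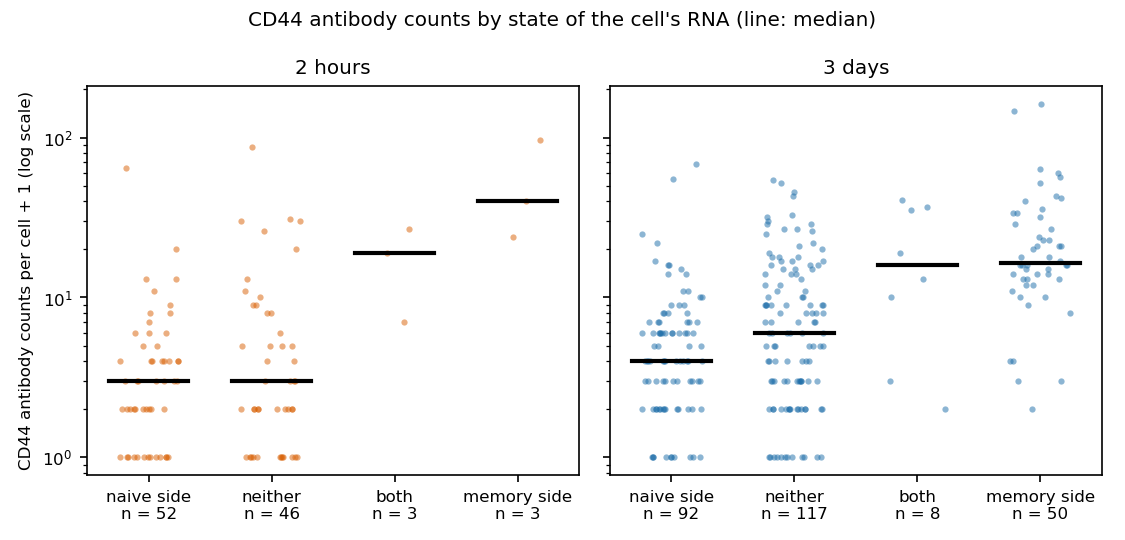
CD44 antibody counts per cell (y axis, counts plus 1, log scale) in CD4 T cells without Foxp3 by RNA-defined side, at 2 hours and 3 days; each point is a cell and the line is the median. At 3 days the median was 15.5 on the memory side and 3 on the naive side, with overlap between the sides.

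Markers of other cell types were followed in every library. The macrophage list summed to 285, 434 and 1817 CPM in members and 627, 492 and 1543 CPM in CD8 T cells. Its most abundant gene in members at 3 days was Lyz2 at 316 CPM (157 without the 10 cells), a gene that the rule limits, as it does S100a9, and C1qa and C1qb were at 0 in naive and 2-hour members and at 101 and 94.0 CPM at 3 days. Neutrophil genes summed to 119, 713 and 780 CPM, led by S100a9 at 218 CPM at 3 days and by Il1b at 176 CPM at 2 hours, with Csf3r, Ngp, Camp, Lcn2 and Mmp8 at 0 UMIs at 2 hours. B cell genes summed to 238, 889 and 1545 CPM, led in both transplants by the class II chaperone Cd74 (22.5, 463 and 518 CPM), and Pax5 and Ebf1 were at 0 UMIs at 2 hours, as were Cd79a and Ms4a1, which the rule limits. Without the class II- or macrophage-rich cells Cd74 was at 30.7 CPM at 2 hours and 50.01 at 3 days. NK cell genes summed to 73.4, 287 and 336 CPM, led in the transplants by Tyrobp, which myeloid cells also express, with Ncr1, Klrb1c and Klre1 at 0 by rule. Dendritic cell genes summed to 146, 301 and 428 CPM, with Cst3 as the leading gene in the transplants and Xcr1 and Clec9a at 0. Genes of γδ T, NKT and innate lymphoid cells summed to 56.7, 7.35 and 54.8 CPM. Platelet and erythrocyte genes summed to 23.8, 0 and 22.4 CPM, and endothelial, epithelial and stromal genes to 336, 88.2 and 122 CPM, of which Pecam1, an adhesion molecule of endothelium and of leukocytes, gave 312, 51.4 and 98.1 CPM. The part of these RNAs in the differences between libraries, beyond the values given without class II- or macrophage-rich cells, was not tested.

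Against the naive library the members could be compared in 4646 genes at 2 hours and 7002 at 3 days. At 2 hours 291 (6.26%) were higher and 1354 (29.1%) lower than in naive, with a median log2 ratio of -0.37, and at 3 days 191 (2.73%) were higher and 857 (12.2%) lower, with a median of -0.04. The share higher at 2 hours among genes past the fold was 17.7%, and 39.1% with centred ratios. Among the 10 genes with the largest ratio in naive were Cmss1 (1409, 0 and 13.2 CPM), Camk4 (1464, 58.8 and 23.7 CPM) and Bach2 (2341, 103 and 94.0 CPM), and CD8 T cells gave 1474, 9.71 and 10.1 CPM for Cmss1. Of the genes higher in naive than at 3 days, 686 of 857 (80.05%) were past the fold in CD8 T cells too, again without a share over all genes beside it. When genes with under 5000 bases of introns were compared alone, the direction of the counts turned. Of 741 such genes 139 were higher at 2 hours than in naive and 41 lower, and of 1320 such genes 93 were higher at 3 days than in naive and 8 lower. Transplantation cannot be told apart from the Cell Ranger version in any comparison with the naive library.

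Within those limits, 9 of 16 immediate-early genes were higher at 2 hours than in naive and none lower (Fos, Jun, Junb, Ier2, Dusp1, Btg1, Zfp36, Klf6 and Ppp1r15a), with a median log2 ratio of 1.12. Without the class II- or macrophage-rich cells Dusp1 (0.97) and Klf6 (0.94) were just short of the fold. Of 16 interferon genes, 7 were higher, among them Isg15, Gbp4, Gbp7, Iigp1, Zbp1 and Ly6e, and 2 lower. The sum of that list was 1.004 higher on the log2 scale in members and 0.45 in CD8 T cells. Ly6e, an interferon-induced surface protein, was at 326, 1080.4 and 602 CPM. Heat-shock genes gave 4 higher and none lower of 11 (Hspa1a, Hspa1b, Dnaja1 and Dnajb1). At 3 days over naive, 5 of 18 memory genes were higher (S100a6, Ahnak, Vim, Anxa2 and Lgals3) and none lower, with a median of 0.64 and a summed log2 difference of 0.66 in members and 0.49 in CD8 T cells. Of the genes higher at 3 days than in naive, 79 of 191 (41.4%) were kept without the class II- or macrophage-rich cells, and C1qa and, of the 5 memory genes, Anxa2 (1.35 over all members and 0.74 without them) were among those not kept. Ccr4 was higher at 3 days with and without these cells (1.31 and 1.33), and so was Thy1, a surface glycoprotein of T cells, at 145, 80.8 and 310.3 CPM (1.05 and 1.09).

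Members and CD8 T cells of the same library share its software and preparation, but not their depth: the median CD8 T cell held 11157, 1413 and 9411 UMIs, and at 2 hours the class held 617789 UMIs in all against 136061 in members. In naive lungs 89 of 7057 genes (1.26%) were higher in members and 71 (1.01%) higher in CD8 T cells. At 2 hours the counts were 42 (2.26%) and 58 (3.12%) of 1860, and at 3 days 115 (1.45%) and 49 (0.619%) of 7917. In all 3 libraries, 24 genes were higher in members and 25 lower, among genes with at least 50 UMIs over both classes in any 1 library. Genes of the rule were not left out of these counts. The 24 thus hold Cd4 and the 25 hold Cd8a and Cd8b1, which the choice of cells fixed. At 2 hours the member levels of Ly6c2, Klrd1, Nkg7 and Ctsw lay below the 22.0 CPM that a count of 0 allows. Among the genes higher in members, the costimulatory receptor Tnfrsf4 (OX40) was at 49.6, 66.1 and 109 CPM against 5.00, 1.62 and 6.67 in CD8 T cells. Maf was at 16.8, 11.3 and 18.7 CPM in CD8 T cells, against the levels above. Tmem64, a membrane protein, was at 347, 499.8 and 399 CPM against 60.9, 90.6 and 69.7. Trat1, an adaptor of the T cell receptor, was at 150.1, 154 and 95.4 CPM against 22.7, 29.1 and 13.3. Ly6a (Sca-1) was at 136, 257 and 237 CPM against 19.995, 42.1 and 36.0, and Trib2, a pseudokinase, at 307, 426 and 306 CPM against 84.5, 141 and 101. Ly6c1 was higher in members (82.5, 235 and 46.5 CPM against 0.909, 4.86 and 1.07) and its near-identical neighbour Ly6c2 lower (30.3, 14.7 and 24.2 CPM against 351, 227 and 329). How reads were assigned between these copies was not examined. Lower in members were the cytotoxic genes Klrd1 (29.0, 7.35 and 15.5 CPM against 289, 173 and 202), Nkg7 (91.5, 14.7 and 88.1 CPM against 272, 337 and 328) and Ctsw (26.4, 14.7 and 22.4 CPM against 102, 63.1 and 134). The whole list of CD8 and cytotoxic genes summed to 912, 515 and 857 CPM in members and 2611, 5625 and 3418 CPM in CD8 T cells, and Cd8a and Cd8b1 were at 0 in members by rule. The CD40 ligand gene Cd40lg, by which helper cells signal to B cells, was at 52.2, 14.7 and 22.8 CPM in members and 1.82, 3.24 and 0.534 CPM in CD8 T cells.

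The members differed from the 8, 5 and 30 Foxp3-positive CD4 T cells in genes other than Foxp3. Il2ra, the high-affinity chain of the interleukin 2 receptor, was at 7.09, 7.35 and 11.0 CPM in members and 370.0, 266 and 255 CPM in Foxp3-positive cells. Ikzf2 was at 76.0, 103 and 94.0 CPM against 1772, 665 and 1322 CPM, Ctla4 at 87.0, 154 and 78.5 CPM against 1267, 798 and 784 CPM, and Il1rl1, the interleukin 33 receptor, at 6.44, 0 and 21.9 CPM against 247, 266 and 381 CPM. The 5 Foxp3-positive cells at 2 hours held 7518 UMIs in all, in which a count of 0 allows up to 399 CPM. Igfbp4 was at 186 and 314 CPM in naive and 3-day members against 11.2 and 26.9 CPM, and at 257 CPM against 0 UMIs at 2 hours, where a difference could not be detected at this depth. Over all 14 regulatory T cell genes outside the rule, members summed to 466, 735 and 661 CPM and CD8 T cells to 348, 321 and 219 CPM. Only 7 of them could be tested between 2 hours and 3 days, 5 between 2 hours and naive and 8 between 3 days and naive. None of those tested was past the fold. A cell with Foxp3 RNA that yielded no Foxp3 UMI is counted among the members.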

How the data were processed

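Single-cell RNA-Seq libraries of naive left lungs and of transplants 2 hours and 3 days after reperfusion were used, with 1 library in each group. The authors deposited unnormalized UMI counts of 32285 genes for droplets called as cells, and for both transplants counts of 277 antibody features, which no method in the sources used here describes. Per the file headers, Cell Ranger 7.1.0 made the naive counts and 6.0.0 the others, and the submitters' processing notes name Cell Ranger 6, Seurat 4 and mm10. For the counting of intronic reads, the setting is not stated. The cell limits were those of the study's methods.

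UMIs were summed over the members of each library in Python 3.11.15 with numpy 2.4.6, pandas 2.3.3 and scipy 1.17.1, and plotted with matplotlib 3.10.9. Gene ratios are log2 ratios of CPM plus 10 among genes with at least 50 UMIs in the pair of libraries, whereas ratios of summed lists and all ratio intervals have no added constant. Intervals are exact Poisson, Clopper-Pearson or conditional on the total count, at 95%, and cover counting error only. UMIs of a pooled library share their mice and preparation, so these intervals do not measure the spread between animals, and no p-value was computed. Doublets were called with Scrublet in scanpy 1.11.5 over all kept cells (40, 403 and 277) and were removed only in an alternative. Intron lengths came from GENCODE vM21 and promoters from RefSeq on GRCm38.p6. The fold calls, the ratio intervals and the thinning were tested on simulated data.

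The members and the 29 gene lists (19 of functions, 10 of other cell types) were chosen with earlier results of these data known. Named were, in each list, the 3 genes of highest summed level and those past the fold, the 10 genes of largest ratio in each direction of each pair of libraries, in each library over both others, and against CD8 or Foxp3-positive cells, together with the rule's genes and other cell types' leading genes and markers at 0. Immunoglobulin, receptor variable and unnamed genes were left out, and some genes of the lists, which still enter the sums and counts, are not reported here. Gbp2, Tbx21, the cytokines and the genes set between the sides of members were named after their values had been seen. Alternatives changed the cell filter, each part of the rule, doublets, depth, scaling, the constant, the count minimum, the intron content and the reference to CD8 T cells. Those without class II- or macrophage-rich cells, without Ccl5, without Tmem176a and Tmem176b, with the counting interval added to the fold and with T cell shares at equal depth were chosen after seeing the data.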

Additional observations from a re-analysis of the deposited data

Results flagged for a closer look

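In 4 lists the ratios in members and in CD8 T cells of the same libraries had opposite signs, with both counting intervals leaving out equality, and none of these differences was tested, since each condition was 1 library. Lists with opposite signs in which an interval held equality were left out, such as Th2 genes at 2 hours over 3 days with -0.47 (-1.26 to 0.23) in members and 1.17 (0.69 to 1.63) in CD8 T cells. Memory and effector genes at 2 hours over 3 days differed by -0.75 on the log2 scale of summed CPM in members and by 0.43 in CD8 T cells, and without Ccl5 by -0.75 and 0.035 (-0.028 to 0.096), so the direction in CD8 T cells rested on that gene. At 3 days over naive, Th17 genes differed by 0.43 in members and -0.50 in CD8 T cells, interferon-induced genes by 0.26 and -0.22, and cell cycle genes by 0.27 and -0.12. Without Tmem176a and Tmem176b, which macrophages also express, Th17 genes differed by 0.19 in members and -0.77 in CD8 T cells, and over members that were not class II- or macrophage-rich the whole list differed by 0.28. These last 3 comparisons cannot be told apart from the counting software.

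The chemokine gene Ccl6, made mainly by myeloid cells, had a log2 ratio of CPM plus 10 at 2 hours over 3 days of 1.36 in members and -1.31 in CD8 T cells, and the difference was not tested. Its UMIs were 19 in 3 members at 2 hours and 106 in 57 members at 3 days, and 10 and 60 without the class II- or macrophage-rich members. CD8 T cells held 19 and 340 UMIs of it.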

How the results depend on the processing

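No paired analysis was possible because each group was 1 library and all carried the number 1. Of 102 alternative values for the 6 counts of genes past the fold, 55 stayed within 1.5 times the count reported, and of 680 for list levels 78 had the other sign, 7 of them where the reported log2 difference was at least 1. Counts are given in the order higher at 2 hours than 3 days, at 3 days than 2 hours, at 2 hours than naive, in naive than 2 hours, at 3 days than naive and in naive than 3 days, where the reported counts were 288, 787, 291, 1354, 191 and 857. List ratios at 2 hours over 3 days were reported as 0.52 for naive and homing, -0.75 for memory and effector, 1.001 for immediate-early and 0.74 for interferon genes. The constant and the count minimum do not enter list levels, and the cause of the changes below was not tested except where fewer cells, UMIs or genes were compared by construction.

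Without any cell that held an S100a8, S100a9 or Lyz2 UMI, 10 cells were left at 3 days, the counts were 64, 41, 168, 586, 120 and 503, the members were 2.23%, 0.827% and 0.1201% of kept cells, and the lists gave 0.92 (naive), 1.12 (immediate-early) and -0.67 (interferon). With at least 2 Cd4 UMIs, 8 cells were left at 2 hours, the first 3 counts were 569, 1637 and 446, the shares 4.62%, 0.0778% and 1.81%, and the lists gave 0.62, 1.57 and 1.015, with Th17 genes at 2 hours over naive at 0.45 (reported -1.13). With each cell thinned to 500 UMIs the counts were 38, 47, 49, 77, 26 and 83, the shares 0.330%, 0.275% and 0.216% of kept cells and 3.85%, 2.41% and 4.49% of T cells, the naive and memory lists 0.61 and -1.25, and the genes set apart from CD8 T cells in all libraries 6 higher and 6 lower (24 and 25 reported). The counts against CD8 T cells did not leave out genes of the rule. A constant of 50 gave 120, 106, 147, 560, 52 and 335, and a constant of 1 gave 338 genes higher at 3 days than naive. With 1 UMI as the minimum the first 4 counts were 631, 1359, 788 and 2178, and with 200 UMIs the counts were 95, 193, 95, 437, 71 and 436.

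After subtraction of the CD8 ratio the counts were 156, 427, 134, 348, 56 and 20, the lists 0.12, -1.18, -0.14 and 0.069, Th1 genes at 3 days over naive 0.10 (reported -1.36), Th17 genes at 2 hours over naive 0.31 and immediate-early genes there -0.079 (reported 1.38). With genes of under 5000 intron bases the counts were 100, 146, 139, 41, 93 and 8, the naive, memory and interferon lists 0.96, -1.16 and 0.53, Th1 genes at 3 days over naive 0.55 and Th17 genes at 2 hours over naive 1.097. With the counting interval added to the fold, 392 genes were higher at 3 days than 2 hours. Centred ratios gave 608 genes higher at 2 hours than naive and lists of 0.69, -0.58, 1.17 and 0.91. Without class II- or macrophage-rich members 83 genes were higher at 3 days than naive. The naive share was 6.06% without the cell filter. With 1 receptor UMI the share at 2 hours was 1.24% and the immediate-early list 1.104. The memory list was -1.0003 without called doublets and -1.33 as a mean over cells. Thinned to 300 UMIs, the memory side held 13.9% of members at 3 days and the naive side 49.7% in naive, and thinned to 1000 UMIs the naive side held 80.1%, 62.3% and 46.1%. Antibody ratios to CD8 T cells as a mean per cell were 0.28 and 0.87 for CD44 and -1.68 and -0.96 for ITGB7, and 0.29, 0.87, -1.69 and -0.96 after subtraction of the isotype controls. The percent of genes past the fold that were higher at 2 hours than 3 days (26.8) became 61.0 without myeloid UMIs, 44.7 thinned, 53.1 with a constant of 50, 40.7 for short introns and 41.8 with the interval. Against naive it became 38.9 thinned, 27.8 minus CD8 and 77.2 for short introns (17.7 reported). At 3 days over naive the percent became 73.7 minus CD8, 92.1 for short introns and 8.84 without class II- or macrophage-rich members (18.2 reported).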

Other observations

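The variable genes of the T cell receptor were sparse in the members. Alpha-chain variable genes gave 58 UMIs in 42 naive members, 4 UMIs in 4 members at 2 hours and 31 UMIs in 27 members at 3 days, spread over 32, 4 and 19 of 128 genes. Beta-chain variable genes gave 40 UMIs in 34 members, 8 in 8 and 48 in 40, over 14, 6 and 17 of 35 genes. The most frequent was Trbv12-2 in naive (9 UMIs), Trbv1 at 2 hours (3 UMIs) and Trbv2 at 3 days (9 UMIs). No clonal expansion could be read from counts of this size.

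The CD44 and ITGB7 antibodies also set the members against CD8 T cells. As a share of all antibody counts of a class, CD44 was higher in members by 0.98 on the log2 scale at 2 hours and 1.08 at 3 days, and by 0.28 and 0.87 as a mean per cell. ITGB7 was lower, with log2 ratios of -0.98 and -0.75 as a share of counts and of -1.68 and -0.96 as a mean per cell. A median CD8 T cell held 36 antibody counts at 2 hours and 56 at 3 days, and a median member 18 and 41.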
